A study of Arabidopsis thaliana with 17 samples.

Results

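The 126 probe sets described here were lower after salicylic acid (SA) than after water in both npr1 sni1 plants (the double) and npr1 sni1 brca2a plants (the brca2a triple) of Arabidopsis thaliana. They were chosen by their values from 22746 probe sets of the Affymetrix ATH1 array, after 64 control probe sets were left out. A member had a mean log2(intensity + 16) at least 0.35 lower in the SA arrays than in the water arrays of each genotype, and its highest SA array lay below its lowest water array in each. The falls in those 12 arrays therefore define the members, and they are given as a description with no test. The 5 arrays of the npr1 sni1 ssn2 plants (the ssn2 triple) were not used in the choice, and the SA effect was tested there. The platform table gives 59 members 1 named locus and 1 member several loci, and it does not list the other 66, which stay unnamed here.

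The plants were 3 weeks old, were grown on soil and received 0.5 mM SA or water for 16 hours, and the tissue entry of the labels reads seedling. All 17 arrays come from plants with both the npr1 and the sni1 mutation, which is shared by the controls. NPR1 is the co-activator through which SA turns on many immune genes, and SNI1 is a repressor of such genes. The brca2a triple is also mutated in BRCA2A, which encodes a homologous recombination protein, and the ssn2 triple also carries ssn2, a mutation named as a suppressor of sni1. Each of the double and the brca2a triple had 3 water and 3 SA arrays, and the ssn2 triple had 3 water and 2 SA arrays, all from biological experiments that the labels call independent. For the ssn2 samples the free text on treatment refers to brca2a plants, and 1 water sample has its treatment entered as a pathogen; titles, genotype entries and the design text all say ssn2 and were followed. The ssn2 arrays came in a table of their own that holds no array of the double. Between the tables, a difference of genotype and one of experiment cannot be told apart, and no test crosses them.

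SA is a hormone of plant immunity: plants that respond to it turn on defence genes, and their growth is often restrained. Iron uptake and distribution in Arabidopsis are controlled by a cascade of basic helix-loop-helix (bHLH) transcription factors and by small IRON MAN peptides, whose genes are turned on when iron is short. Plants perceive blue light through cryptochromes, and the small BIC proteins, whose genes are themselves turned on by light, bind cryptochromes and keep them inactive.

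Among the 12 arrays, the water arrays of the double were less alike than those of the other groups. The lowest Pearson correlation of each with another of its group across probe sets was 0.98 for all 3, against at least 0.994 in the other 3 groups. A single unlike array would lower this value for its group mates as well, so it cannot tell whether 1 of the 3 stood apart. Over the members it was water replicate 2 that stood apart. It was the lowest of the 3 water arrays of the double for 103 of the 126 members, and its median distance from the mean of the other 2 water arrays was -0.36 (log2) over the members and -0.0033 over all probe sets. Because every SA array had to lie below it, it limited the choice: without it 502 probe sets met the rule, 124 of the 126 members among them. Leaf and root markers were as follows. RCA, the Rubisco activase gene and the only measured one of 9 leaf markers, had group means of 10605 to 14341. Of the 3 measured root markers among 16, the root hair expansin genes EXPA7 and EXPA18 had group means of 16.4 to 27.8 and PYK10 of 602 to 958. PYK10 was lower with SA in the ssn2 triple (686 against 958, adjusted p = 0.00085) and not called in the other genotypes. None of the 6 flower markers and none of the 4 mutated genes had a one-gene probe set. The part of shifts between cell types in the values reported here was not tested, and in whole plants fewer cells of a type and less RNA per cell cannot be told apart.

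Over the members, the median SA minus water difference was -0.56 (log2; range -1.42 to -0.35) in the double and -0.50 (range -1.74 to -0.35) in the brca2a triple. Over all probe sets the medians were -0.014 and -0.019. The falls were modest: 11 members were at least 2-fold lower with SA in the double and 10 in the brca2a triple. In 81 members the fall was larger in the double, and in 92 the falls of the 2 genotypes lay within 0.2 of each other. In limma's fit of the 12 arrays, 92 members were called lower in the double (adjusted p under 0.05), where 2.54% of all probe sets were called lower and 4.94% higher. In the brca2a triple 68 members were called lower, against 2.04% of all probe sets lower and 2.61% higher. These counts follow from the choice of the members and are no test of it. The signal of the members was above that of most probe sets, with a median intensity of 224 in the water arrays of the double (60.5 over all probe sets) and 272 in those of the ssn2 triple (58.1 over all).

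**Figure D1:**
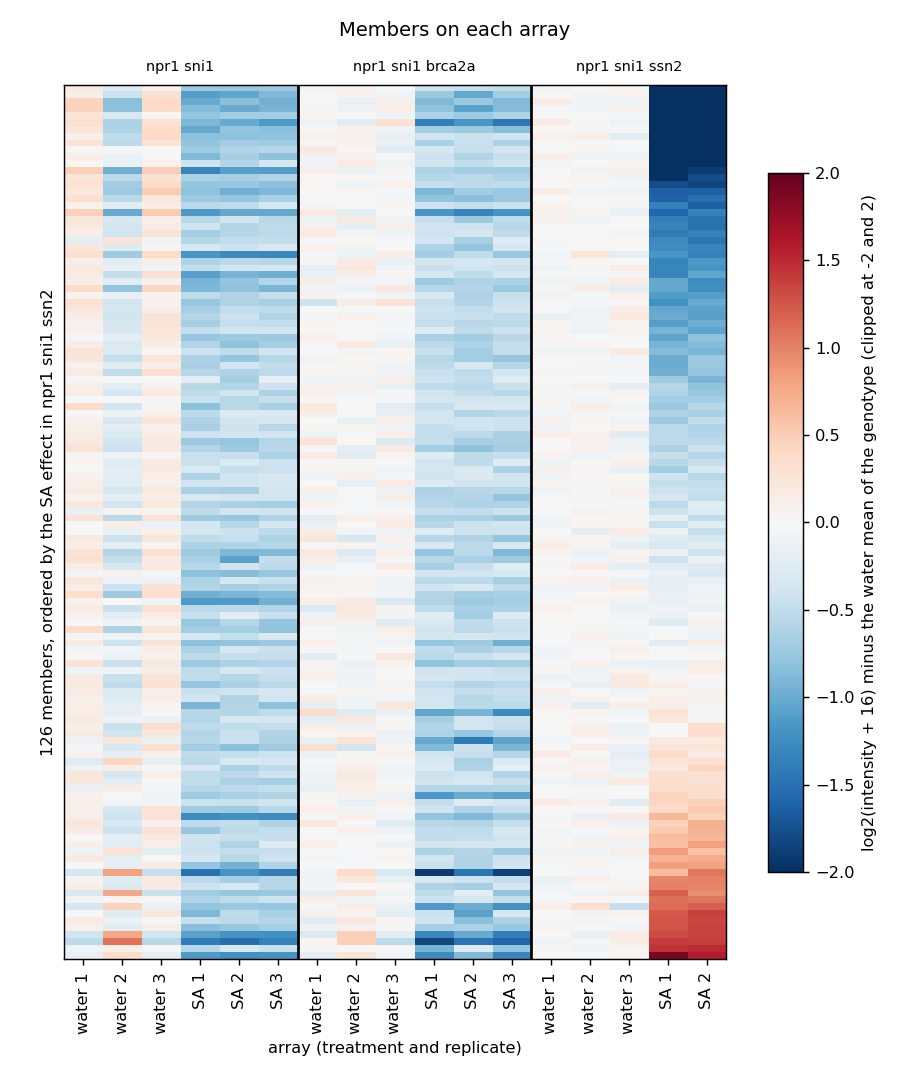
Each row is 1 of the 126 members, ordered by its SA effect in the ssn2 triple, and each column is 1 array; colour is log2(intensity + 16) minus the water mean of the same genotype, clipped at -2 and 2. The SA columns of the double and the brca2a triple are blue throughout because the members were chosen for that, water replicate 2 of the double is the bluest of the water columns, and the SA columns of the ssn2 triple run from dark blue (65 members called lower) to red (28 called higher).

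The members split in the ssn2 triple. With SA, 65 of 126 were lower (51.6%), where 14.5% of all 22746 probe sets were lower at an adjusted p under 0.05 (limma, 3 water against 2 SA arrays). Another 28 were higher (22.2%), a share near the 18.8% over all probe sets, and 33 (26.2%) were not called. Both SA arrays lay below all water arrays for 74 members (58.7%, against 25.2% of all probe sets) and above them for 33 (26.2%, against 27.9%). The median SA effect was -0.34 (log2; interquartile range -1.09 to 0.18) over the members and 0.0016 (-0.11 to 0.16) over all probe sets.

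Large effects in the ssn2 triple, above all falls but also rises, were more common among the members than over all probe sets. With SA, 35 of them were at least 2-fold lower (27.8%) and 10 at least 2-fold higher (7.94%), whereas 529 (2.33%) and 496 (2.18%) of all probe sets passed these sizes. Among the 65 called lower the median effect was -1.05 (range -5.43 to -0.22), and among the 28 called higher it was 0.77 (0.19 to 1.73). Effects of the 33 that were not called lay between -0.34 and 0.32. A closer background is the 11373 probe sets above the median intensity. The fit and the p-value adjustment were repeated on these alone, so the calls differ from those over all probe sets. They include 116 members, of which 66 were lower in that fit (56.9%, against 25.4% of the 11373) and 27 higher (23.3%, against 32.5%). The 2-fold sizes were not counted against this background.

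**Figure D2:**
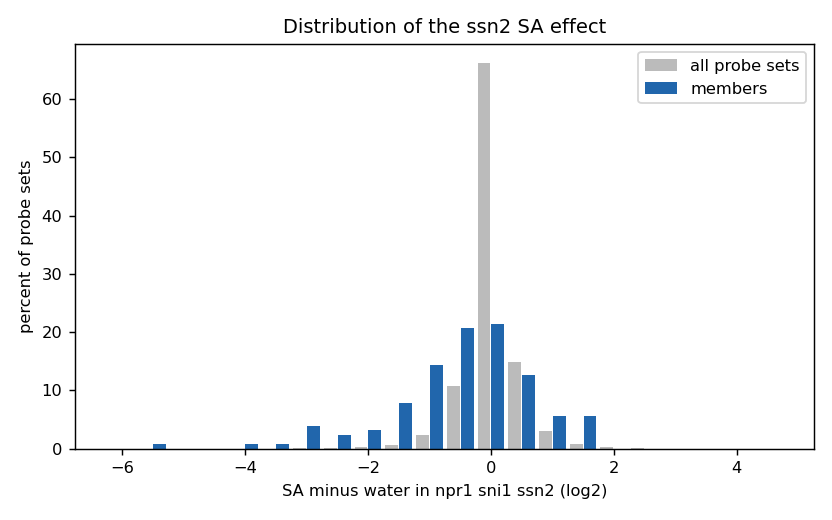
The horizontal axis is the SA minus water difference in the ssn2 triple (log2, in bins of 0.5) and the vertical axis the percentage of the 22746 probe sets (grey) or of the 126 members (blue) in each bin. The bin around 0 holds 66.1% of all probe sets and 21.4% of the members, and the members reach further to the left.

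Because the rule chose all members by their differences in the double and the brca2a triple, their values there are a description. The median difference in the double was -0.57 for those called lower, -0.56 for those called higher and -0.55 for those not called, and in the brca2a triple it was -0.49, -0.56 and -0.48. Water replicate 2 of the double was the lowest of the 3 for 61 of the 65 members called lower, for 27 of the 33 not called and for 15 of the 28 called higher, and it was the highest for 12 of those 28. The median distance of that array from the mean of the other 2 was -0.48, -0.35 and -0.15 in these 3 sets. The part of that array in the split was not tested. With members chosen without it, 359 of 502 were lower in the ssn2 triple (71.5%), 48 were higher (9.56%) and the median effect was -0.74.

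**Figure D3:**
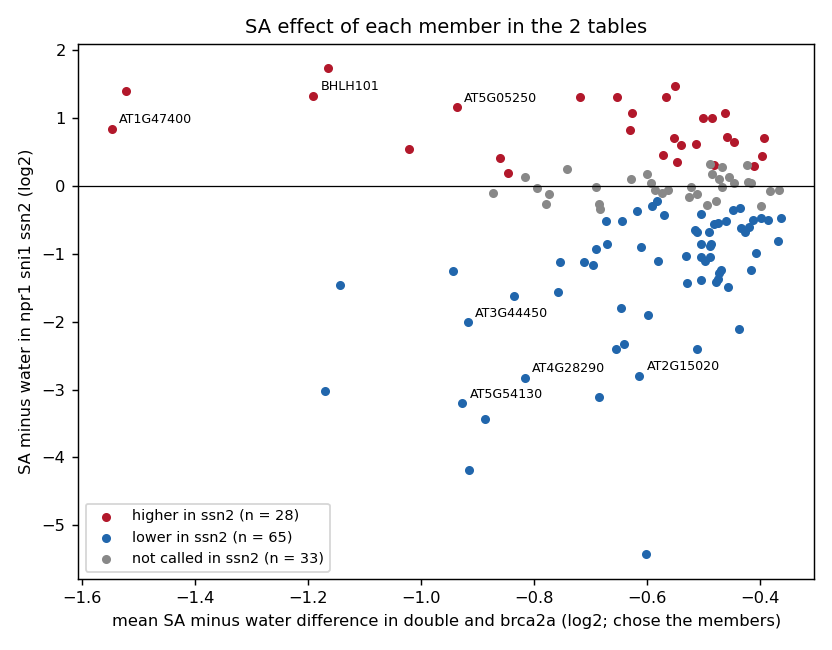
Each point is a member; the horizontal axis is the mean of its SA minus water differences in the double and the brca2a triple (log2), which chose the members, and the vertical axis its SA effect in the ssn2 triple (log2). Colours mark members called lower (n = 65), higher (n = 28) or not called (n = 33), and the 2 named members with the largest mean falls, AT1G47400 and BHLH101, lie above 0 in the ssn2 triple.

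Iron deficiency genes held the 2 largest mean falls among the named members. Of the 7 measured genes of a list of 25, 4 were members: AT1G47400, which encodes an IRON MAN peptide, the bHLH transcription factor genes BHLH101 and PYE, and AT5G05250, whose product has no role assigned here. The list was drawn up with these genes known to fall. Of the 7, 4 were higher with SA in the ssn2 triple and 1, PYE, was lower, where 18.8% of all probe sets were higher and 14.5% lower; the choice of the list leaves nothing to read from this count. AT1G18910 (0.02 ± 0.05, adjusted p = 0.82) and AT1G74770 (0.20 ± 0.14, adjusted p = 0.37) were not called, and the remaining non-member, AT3G07720, was higher (0.44 ± 0.08, adjusted p = 0.0088). None of these 3 non-members was called in the double or the brca2a triple, where their differences lay between -0.13 and 0.18.

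AT1G47400 (chr1:17385707-17386485, TAIR10.1) had intensities of 169.9, 397 and 156 in the water arrays of the double and 68.5, 87.2 and 74.7 in its SA arrays. In the brca2a triple it had 309.8, 419 and 257 in water and 74.1, 108 and 76.5 after SA. In these 12 arrays the highest SA value, that of brca2a replicate 2, was well under the lowest water value. The ssn2 triple had 635, 619 and 636 in water and 974 and 1328 after SA, so there the SA arrays lay above the water arrays. The SA differences were -1.36 in the double and -1.74 in the brca2a triple, and the effect in the ssn2 triple was 0.84 ± 0.13 (log2 ± standard error, 3 arrays against 2, adjusted p = 0.0033), or 1.79-fold higher.

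BHLH101 (chr5:1138410-1139633) is a bHLH gene of subgroup Ib, whose products work with the central iron regulator FIT in turning on iron uptake genes. Its intensities were 45.6, 124 and 46.6 in water and 22.9, 19.4 and 19.1 after SA in the double, and 71.6, 133 and 76.9 (water) and 27.8, 37.2 and 24.8 (SA) in the brca2a triple. Water replicate 2 was the highest array in both genotypes. The ssn2 triple had 44.2, 38.2 and 51.4 in water and 133 and 137 after SA, with no overlap and in the opposite direction. That is an effect of 1.32 ± 0.09 (adjusted p = 0.00018), after differences of -1.16 and -1.22 in the double and the brca2a triple.

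AT5G05250 (chr5:1556987-1558486) followed the same order. Its intensities were 148, 269 and 173 (double, water), 105, 108 and 105 (double, SA), 205, 233 and 191 (brca2a, water) and 86.8, 97.0 and 80.8 (brca2a, SA). Its values in the ssn2 triple were 192, 224 and 122 in water and 396 and 422 after SA. The water arrays there were spread over a wider range than for the other iron genes, and both SA arrays lay above them. The effect was 1.16 ± 0.22 (adjusted p = 0.0088), and it was not called without SA replicate 1 (adjusted p = 0.064) or SA replicate 2 (adjusted p = 0.079) of the ssn2 triple. For AT1G47400, BHLH101 and AT5G05250, water replicate 2 of the double was the highest water array, unlike for most members.

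PYE (chr3:17567126-17569394), which restrains part of the iron deficiency response, was the iron gene that was lower with SA in all 3 genotypes. It had 98.3, 78.8 and 104 in water and 71.4, 68.8 and 66.8 after SA in the double, and 93.5, 97.8 and 110.2 (water) and 61.8, 61.8 and 51.9 (SA) in the brca2a triple. Water arrays of the ssn2 triple had 294, 295 and 320.0 and SA arrays 237 and 209.9. Its effect there was -0.41 ± 0.07 (adjusted p = 0.0061), a 1.33-fold fall without overlap of the arrays.

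**Figure D4:**
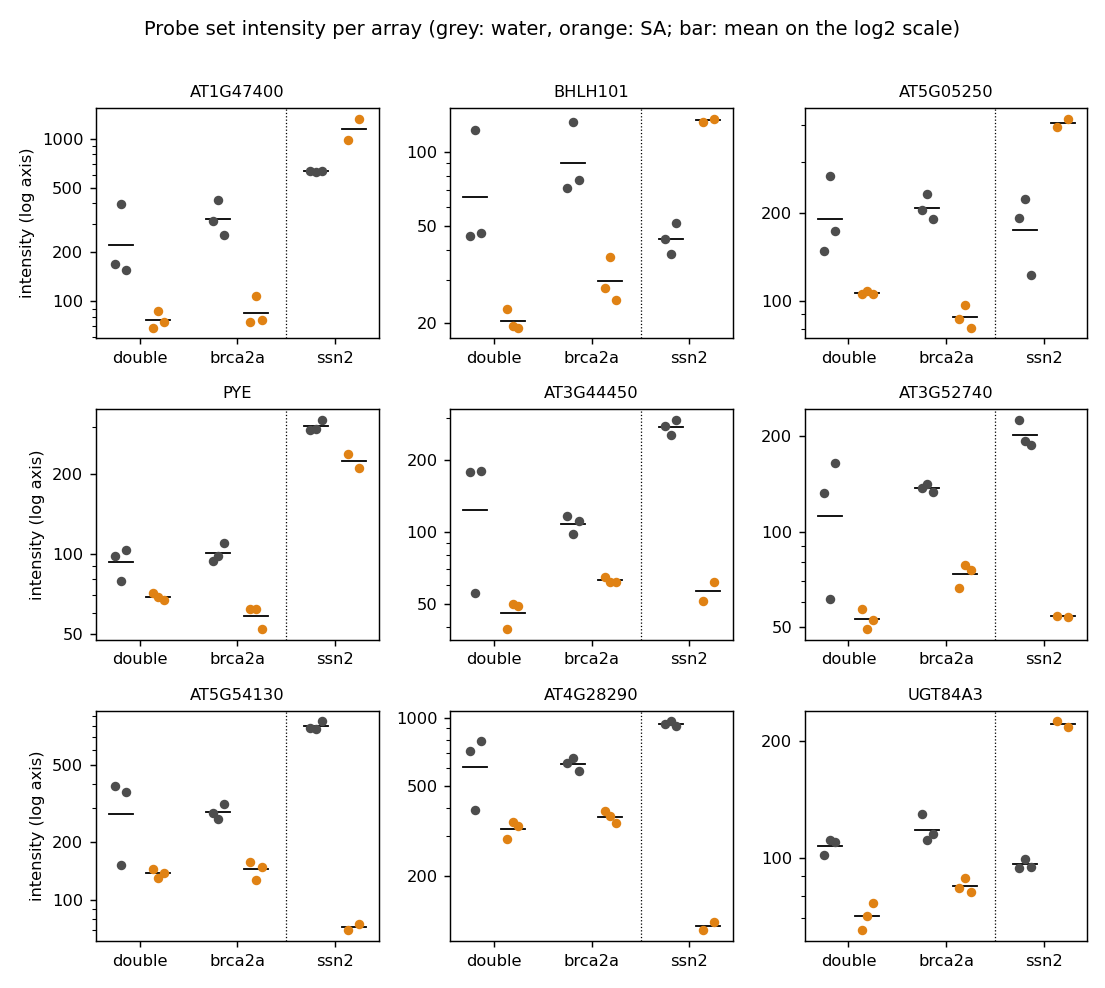
Each panel shows 1 member, with probe set intensity on a log axis for every water (grey) and SA (orange) array of the double, the brca2a triple and the ssn2 triple; bars are group means on the log2 scale, and the dotted line separates the 2 tables, between which levels are not compared. In the ssn2 panels SA lies above water for AT1G47400, BHLH101, AT5G05250 and UGT84A3 and below it for the other 5 genes.

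The light signalling genes among the members were lower with SA in the ssn2 triple. In the double and the brca2a triple the rule chose them for being lower, so no test is given there (in the brca2a triple neither would be called). Of 21 listed genes 3 were measured, and all 3 were lower in the ssn2 triple, where 14.5% of all probe sets were lower. The list was drawn up with earlier results of these data known, so nothing is read from the count. Both members, AT3G44450 (BIC2) and AT3G52740 (BIC1), encode inhibitors of cryptochromes. AT3G44450 (chr3:16073765-16074929) had 179, 55.2 and 179 in water and 39.1, 49.8 and 48.9 after SA in the double, and 116, 97.8 and 111 (water) and 64.7, 61.4 and 61.8 (SA) in the brca2a triple. Replicate 2 of the double's water arrays was near the SA level, far below the other 2. The ssn2 triple had 278, 254 and 295 in water and 51.2 and 61.7 after SA, an effect of -2.01 ± 0.09 (adjusted p = 3.1e-05) or a 4.03-fold fall.

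AT3G52740 (chr3:19546227-19547171) had 132, 61.5 and 165 (water) and 57.1, 49.3 and 52.5 (SA) in the double, and 138, 141 and 133 (water) and 66.2, 78.4 and 75.8 (SA) in the brca2a triple. Water replicate 2 of the double was again close to the SA arrays. Its ssn2 values were 225, 193 and 187 in water and 54.3 and 54.0 after SA, a 3.09-fold fall (-1.63 ± 0.08, adjusted p = 5.2e-05). The third measured gene of the list, HYH, which encodes a light-response bZIP transcription factor and is not a member, fell by 2.59 ± 0.08 in the ssn2 triple (adjusted p = 7.1e-06). It had -0.04 ± 0.19 in the double (adjusted p = 0.96) and -0.63 ± 0.19 in the brca2a triple (adjusted p = 0.091).

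AT3G15720, listed with the cell wall genes as a pectin lyase-like protein gene, was the third named member by mean fall. It had 74.1, 45.4 and 84.3 in water and 18.5, 19.6 and 18.4 after SA in the double, and 40.2, 45.7 and 39.4 (water) and 17.3, 15.2 and 18.7 (SA) in the brca2a triple, where the SA arrays were near the added 16. It was higher with SA in the ssn2 triple, at 69.3 and 58.1 against 37.6, 33.7 and 45.2 in water (0.54 ± 0.11, adjusted p = 0.0097; 0.077 without SA replicate 1). Of the 5 measured non-members among the 17 listed cell wall genes, XTH16, XTH18 and XTH33, which encode wall-loosening xyloglucan enzymes, were higher with SA in the double (0.55, 2.42 and 0.90) and XTH16 and XTH33 also in the brca2a triple (0.46 and 0.90). Of the 6 measured cell wall genes, 3 were higher in the ssn2 triple, where 18.8% of all probe sets were higher. They were AT3G15720, XTH16 (0.26 ± 0.07, adjusted p = 0.031) and the expansin gene EXPA4 (0.42 ± 0.13, adjusted p = 0.048). That count fell to 1 after median centring, quantile normalization or the removal of any 1 water array. The list was drawn up with earlier results of these data known, so nothing is read from the count.

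No other list held a member. The nitrate list had 3 measured genes of 16, of which the repressor gene AT1G25550 (-1.14 ± 0.18, adjusted p = 0.0097) and its relative AT1G68670 (-0.56 ± 0.12, adjusted p = 0.03) were lower with SA in the brca2a triple and none was called in the double or the ssn2 triple. The measured genes of the flavonoid (4 of 15), auxin (3 of 16), jasmonate (2 of 20), SA response (3 of 20), clock (1 of 14) and heat shock (1 of 11) lists were not members either. The clock gene GI and the heat shock gene AT5G51440 were lower with SA in the ssn2 triple (-2.53 and -1.85), as were the flavonoid glycosylation genes UGT78D2 and UGT78D1 (-1.66 and -0.98), while DFR, of anthocyanin synthesis, was higher (0.89). In the double GI, UGT78D2, UGT78D1 and DFR had differences of -0.25, -0.52, -0.59 and -0.65, none of them called. In the brca2a triple they had -0.62, -0.69, -0.51 and -0.04, again without a call. AT5G51440 was not called in the double (-0.22, adjusted p = 0.75) and was lower in the brca2a triple (-1.14, adjusted p = 0.029).

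On the scale used, with 16 added to each intensity, the steepest named falls in the ssn2 triple were those of AT5G54130 and AT4G28290. With 1 added instead, the order changed, to -3.99 for AT2G15020, -3.44 for AT5G54130, -3.18 for AT1G26790 and -2.98 for AT4G28290. AT5G54130 (chr5:21962570-21965623) had 388, 152 and 363 in water and 146, 130.3 and 138 after SA in the double, and 283, 265 and 316 (water) and 158, 128 and 149 (SA) in the brca2a triple. In the ssn2 triple it went from 783, 773 and 846 in water to 70.0 and 75.5 after SA, a 9.20-fold fall (-3.20 ± 0.06, adjusted p = 2.1e-06). Both SA arrays of the ssn2 triple were far below its water arrays, whereas in the double water replicate 2 was just above the SA arrays.

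AT4G28290 (chr4:14011080-14012697) had 715, 391 and 789 (water) and 291, 345 and 334 (SA) in the double, and 634, 667 and 585 (water) and 387, 369 and 342 (SA) in the brca2a triple. The ssn2 triple had 946, 971 and 922 (water) and 114 and 125 (SA), a 7.10-fold fall (-2.83 ± 0.06, adjusted p = 2.5e-06). AT2G15020 had 114, 69.0 and 143 in water and 52.4, 52.0 and 53.1 after SA in the double and 112, 112 and 93.2 (water) and 76.4, 73.2 and 76.4 (SA) in the brca2a triple. With 168, 173 and 133 in water, it had only 8.17 and 9.77 after SA in the ssn2 triple (-2.80 ± 0.11, adjusted p = 2.1e-05), below the added 16, so the log2 scale understates its fall.

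THI2.2, which encodes a thionin, a small antimicrobial peptide, had 598, 502 and 556 in water and 290.5, 342 and 305 after SA in the double, and 533, 593 and 552 (water) and 416, 362 and 401 (SA) in the brca2a triple. In the ssn2 triple it had 784, 682 and 680.0 in water and 113 and 148 after SA, a 5.02-fold fall (-2.33 ± 0.12, adjusted p = 5.3e-05). The Dof transcription factor gene AT1G26790 had 59.4, 61.7 and 59.2 in water and 6.33 and 5.24 after SA in the ssn2 triple (-1.81 ± 0.05, adjusted p = 6.9e-06). In the double it had 36.0, 10.3 and 39.8 in water and 8.71, 9.22 and 7.85 after SA, so that replicate 2 was only just above the SA arrays. All SA values of AT1G26790 given here lie below the added 16, and its effect in the ssn2 triple was -3.18 with 1 added, -0.83 with 64 added and -3.38 in the series value table, called lower each time.

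Among the 12 named members with the lowest effects in the ssn2 triple were also AT5G43150 (-2.41), AT1G72500 (-2.41), AT4G24700 (-1.90), AT5G55620 (-1.56) and AT1G32780 (-1.43). AT1G72500 is 1 of the members whose water arrays of the double did not set replicate 2 apart, with 252, 239 and 245 in water and 143, 155 and 161 after SA. Its values in the ssn2 triple were 333, 338 and 321 in water and 50.9 and 47.9 after SA. AT5G55620 had 2226, 2172 and 2263 in water and 712 and 773 after SA in the ssn2 triple. The C2H2 zinc finger gene AT2G28200, in the set with the largest mean falls, had a difference of -0.997 in the double and -0.40 in the brca2a triple, and an effect of -1.17 ± 0.09 in the ssn2 triple (adjusted p = 0.00024).

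Some unnamed members went further than any named one. Chosen after their values were seen as the extremes in the ssn2 triple, 258497_at had 1539, 1681 and 1699.5 in water and 19.2 and 26.0 after SA there, an effect of -5.43 ± 0.09 (adjusted p = 1.7e-06). In the double it had 1279, 949 and 1196 in water and 668, 665 and 675 after SA. At the other end 248270_at had 687, 678 and 719.6 in water and 2598 and 2098 after SA in the ssn2 triple (1.73 ± 0.10, adjusted p = 7e-05), after differences of -1.17 in the double and -1.16 in the brca2a triple. Of the 59 named members 33 were lower, 14 higher and 12 not called, and of the other 67 these were 32, 14 and 21, against 14.5% of all probe sets lower and 18.8% higher. The difference between named and unnamed members was not tested.

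Besides the iron genes, the named members with the highest effects in the ssn2 triple were AT5G58570, UGT84A3, AT5G25280, AT1G78020 and AT5G17700. UGT84A3 (chr4:8852656-8854706), which encodes a glucosyltransferase of hydroxycinnamic acids such as sinapate, had 102, 111 and 109.6 in water and 65.1, 70.9 and 76.8 after SA in the double, and 129, 111 and 115 (water) and 83.8, 88.7 and 81.6 (SA) in the brca2a triple. Its replicates lay close together, water replicate 2 of the double included. In the ssn2 triple it had 94.5, 99.6 and 94.7 in water and 225 and 216 after SA, or 2.11-fold higher (1.08 ± 0.05, adjusted p = 4.1e-05).

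AT5G58570 had 124, 101 and 146 in water and 58.5, 81.1 and 71.8 after SA in the double, 155, 153 and 126 (water) and 103, 60.0 and 109 (SA) in the brca2a triple, and 126, 121 and 135 (water) and 319.7 and 353 (SA) in the ssn2 triple (1.30 ± 0.07, adjusted p = 6.2e-05). AT1G78020 rose from 976, 1048 and 1066 in water to 2076 and 2042 after SA in the ssn2 triple (0.99 ± 0.06, adjusted p = 8.4e-05), and AT5G25280 from 568, 666 and 634 to 1237 and 1261 (0.99 ± 0.08, adjusted p = 0.00024). AT5G17700, a gene of the MATE family of efflux transporters, had 149.8, 156 and 153 in water and 285 and 278 after SA (0.81 ± 0.05, adjusted p = 9.1e-05). In the arrays that chose them, AT1G78020, AT5G25280 and AT5G17700 had differences of -0.44, -0.59 and -0.78 (double) and of -0.53, -0.41 and -0.48 (brca2a triple).

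Of the 12 named members with the largest mean falls, AT1G68570 and AT5G16980 were not called in the ssn2 triple. AT1G68570, a gene of the nitrate and peptide transporter family, had 535, 289 and 552 in water and 264, 229.7 and 232 after SA in the double, and 634, 459.9 and 598 (water) and 320.5, 381 and 296 (SA) in the brca2a triple. Its ssn2 values were 329, 286 and 327 in water and 284 and 234 after SA, without overlap but with an effect of only -0.27 ± 0.10 (adjusted p = 0.096; called lower without SA replicate 1, with -0.40 and adjusted p = 0.048, and among brighter probe sets, with adjusted p = 0.038).

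Beyond the lists, products of known kind were grouped after the values were seen. Of 5 genes for chloroplast proteins or RNA handling, the intron splicing factor gene CAF1 (-0.48) and the pentatricopeptide repeat gene AT5G02830 (-1.05) were lower in the ssn2 triple, and the plastid chaperonin gene Cpn60beta4 was higher (0.46). The RNA-binding protein gene AT1G60000 (0.06, adjusted p = 0.62) and the pentatricopeptide repeat gene AT5G48730 (0.09, adjusted p = 0.33) were not called. Among 3 RING finger protein genes, AT5G55970 (-1.37) and AT5G17600 (-0.53) were lower and AT2G37950 (0.29, adjusted p = 0.024) was higher. The last call ended without SA replicate 1, SA replicate 2 or water replicate 1 (adjusted p = 0.092, 0.12 and 0.065). Neither of these groups, which may not hold every member of its kind, moved in a single direction. GIS, a zinc finger gene of trichome formation, was not called (-0.23, adjusted p = 0.13; called lower without water replicate 3, with -0.32 and adjusted p = 0.023).

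The remaining 21 named members comprised 15 that were lower in the ssn2 triple and 6 that were not called, where 14.5% of all probe sets were lower and 18.8% higher. The 14 named members called higher are described in other paragraphs, so these counts follow from that sorting. AT2G19650 (-1.42), AT3G22530 (-1.25), AT5G06790 (-1.11) and AT2G39950 (-1.05) were at least 2-fold lower, and AT1G13730 (-0.99) was just short of that. AT3G26510, which encodes a PB1 domain protein, had 1397, 1032 and 1383 in water and 837, 717 and 786 after SA in the double, 1115, 1308 and 1025 (water) and 791, 738 and 821 (SA) in the brca2a triple, and 933, 993 and 953 (water) and 496 and 519 (SA) in the ssn2 triple (-0.90 ± 0.05, adjusted p = 9.4e-05). Its water and SA arrays did not overlap in the ssn2 triple. In the double and the brca2a triple, where the rule fixed that order, its falls were -0.68 and -0.54.

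Smaller effects in the ssn2 triple were those of AT5G06280 (-0.68), the WD-40 repeat gene AT3G10530 (-0.63), AT5G23920 (-0.52), the leucine-rich repeat gene AT3G17640 (-0.52), the mitochondrial carrier gene AT1G78180 (-0.51) and AT1G71810 (-0.43). AT1G72030 (-0.38, adjusted p = 0.02), AT5G62210 (-0.30, adjusted p = 0.018) and AT1G15260 (-0.22, adjusted p = 0.046) were called with little margin. The call of AT1G72030 ended without water replicate 1 or 2 (adjusted p up to 0.07), that of AT5G62210 without either SA array or water replicate 1 or 2 (up to 0.11), and that of AT1G15260 without SA replicate 2 or any 1 water array (up to 0.17), with the replicate block (0.075), with quantile normalization (0.076), with a pseudocount of 1 (0.1) and in the series value table (0.11). The effect of AT1G72030 was -0.23 without SA replicate 1. AT1G15260 had 464, 511 and 472 in water and 268, 261 and 279 after SA in the double, with water replicate 2 the highest array.

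Those not called were AT5G41050 (-0.27, adjusted p = 0.093; called lower without SA replicate 2, with -0.41 and adjusted p = 0.029, and among brighter probe sets, with adjusted p = 0.037), AT1G69523 (-0.12), AT4G13100 (-0.11), AT5G02480 (-0.02), the subtilase gene AT5G59130 (0.04) and AT1G66820 (0.18). AT5G02480 had 971, 973 and 1103 in water and 646, 800.2 and 741 after SA in the double, and 949.5, 919 and 946 (water) and 661, 591 and 631 (SA) in the brca2a triple. Its water and SA arrays overlapped in the ssn2 triple, at 710.5, 716 and 796 (water) and 748 and 709 (SA). The effects of AT5G02480 and AT5G59130 were so near 0 that their sign changed without single arrays.

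Neighbouring members occurred at a pair of places. On chromosome 5, AER (AT5G16970), AT5G16980 and AT5G16990 lie side by side from 5575973 to 5584466 (TAIR10.1), and AER encodes an alkenal reductase, which detoxifies reactive carbonyls. AER had 181, 158 and 159.9 in water and 119, 117 and 123 after SA in the double, and 150.2, 143 and 109 (water) and 183 and 188 (SA) in the ssn2 triple (0.44 ± 0.12, adjusted p = 0.039). That call ended without either SA array (adjusted p = 0.15 and 0.18), without water replicate 2 (0.072), and with median centring, quantile normalization or a pseudocount of 64 (0.054 to 0.07). AT5G16980 had 77.5, 61.6 and 104 (water) and 43.5, 37.8 and 42.4 (SA) in the double. In the ssn2 triple it had 75.3, 85.9 and 68.2 (water) and 93.4 and 92.8 (SA) (0.24 ± 0.09, adjusted p = 0.078; called higher without water replicate 2, with 0.32 and adjusted p = 0.028, and among brighter probe sets, with adjusted p = 0.043). AT5G16990 had -0.06 ± 0.07 there (adjusted p = 0.58). The flanking gene AT5G16960, not a member, had 0.11, -0.11 and 0.02 in the double, the brca2a triple and the ssn2 triple, none of them called.

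On chromosome 2, AT2G29310 and AT2G29320 lie next to each other from 12589866 to 12593803 in a row of tropinone reductase-like genes, TRI among them. AT2G29310 had 194, 200.1 and 179 in water and 294 and 346 after SA in the ssn2 triple (0.70 ± 0.09, adjusted p = 0.0015), and AT2G29320 had 104, 104 and 97.6 (water) and 174 and 182 (SA) (0.72 ± 0.05, adjusted p = 0.0002). Both were thus higher with SA there, after differences of -0.43 and -0.44 (double) and of -0.35 and -0.48 (brca2a triple). Their neighbours AT2G29290, AT2G29300 and AT2G29360 were lower in the double (-0.52, -0.52 and -0.49), were not called in the brca2a triple (-0.04, -0.07 and 0.15) and were lower in the ssn2 triple (-0.19, -0.71 and -1.09). TRI was called in none of the 3 genotypes. Whether probe sets of such related genes cross-hybridise was not tested.

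**Figure D5:**
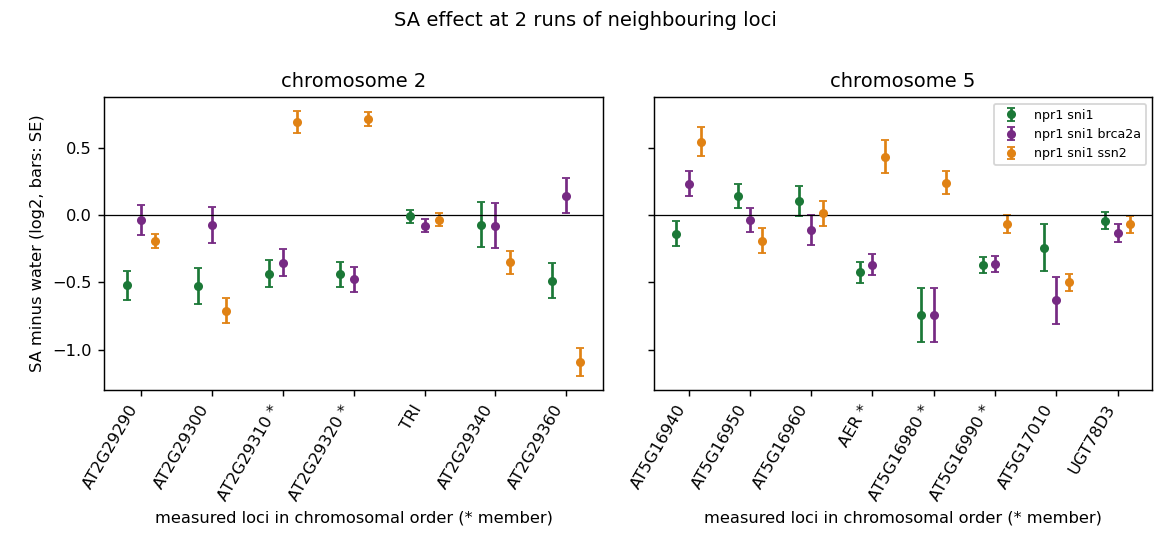
The horizontal axis lists the measured loci around each run of neighbouring members in chromosomal order (members starred), and the vertical axis is the SA minus water difference (log2, bars ± standard error) in the double, the brca2a triple and the ssn2 triple. On chromosome 2 the 2 members are higher with SA in the ssn2 triple (0.70 and 0.72) while 4 of the 5 other measured loci are lower there, and on chromosome 5 the ssn2 values of the 3 members run from 0.44 to -0.06.

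The named members lay on all 5 chromosomes: 15 on chromosome 1, 8 on chromosome 2, 9 on chromosome 3, 4 on chromosome 4 and 23 on chromosome 5. As shares these were 25.4%, 13.6%, 15.3%, 6.78% and 39% of the members, against 25.7%, 16.3%, 20.5%, 14.6% and 22.4% of all named loci. The difference in shares was not tested.

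At the limit of the rule, the members nearest to it were 259908_at, with differences of -0.35 in the double and -0.38 in the brca2a triple, and AT2G29310, with -0.43 and -0.35. Just outside lay 253981_at (-0.40 and -0.35) and AT1G12020 (-0.42 and -0.35), whose fall in the brca2a triple was smaller than the limit before rounding. In the ssn2 triple the effects of these 4 were -0.81, 0.70, 1.09 and -0.43, so probe sets on both sides of the limit went either way. A limit of -0.5 would leave 52 members, 26 of them lower and 14 higher in the ssn2 triple.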

How the data were processed

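Expression was measured on 17 ATH1 arrays in 6 groups. The authors deposited linear probe set intensity values in 2 tables, made with PLIER per the submitters' processing notes, which name no version. Array medians of intensity lay between 57.2 and 61.9. A series value table, also deposited and on a log2 scale, served only as an alternative. Its values equal log2 intensity minus 1 constant per probe set (to within 2.32e-06 across the arrays of a table), which is the probe set median for the 12 arrays and of unknown origin for the 5. Its array medians ran from -0.0218 to 0.0287. The 2 tables were taken as normalized separately. Values were used as log2(intensity + 16), a scale that shrinks differences between low intensities, and no low values were filtered out. Group means were fitted with limma 3.58.1 (lmFit, eBayes) in R 4.3.3, separately for the 12 and the 5 arrays, and p-values are two-sided and adjusted by Benjamini-Hochberg over all 22746 probe sets (threshold 0.05). Errors are standard errors of the fit. For the brighter probe sets, given as an alternative, the fit and the adjustment used those probe sets alone. Precision is limited by the number of arrays.

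The platform table names 1 gene for 13513 probe sets and several for 503, and does not list 8730. Locus tags in RefSeq (TAIR10.1) were found for 13436 of the 13513, at 13286 loci. A gene is called measured if it has a one-gene probe set. The members and the gene lists were chosen with earlier results of these data known. Genes were named by rule: among members with 1 named locus, the 12 with the lowest mean difference over the 2 genotypes, the 12 lowest and 8 highest of those called in the ssn2 triple, members in a list, and the nearest probe sets on each side of the limit. The other named members, neighbouring loci and the unnamed extremes were named after the values were seen.

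Same-numbered water and SA arrays did not deviate together (correlations of -0.33 to -0.009), so replicate numbers were not used as pairs. Differently numbered arrays had correlations of -0.173 to 0.305, the highest for water replicate 2 with SA replicate 3 of the brca2a triple, and the cause was not tested. Alternatives were pseudocounts of 1 and 64, median centring, quantile normalization, the series value table, brighter probe sets, an intensity trend, a replicate block, leaving out each array, and other ways to choose the members. In a test on simulated data the fit of the 5 arrays was checked for the size and sign of the added effects. False calls were counted there, but no limit was set on them.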

Additional observations from a re-analysis of the deposited data

Results flagged for a closer look

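Opposite directions marked 17 members named in the text: every SA array lay below every water array in the double and above every water array in the ssn2 triple. These differences between genotypes were not tested, since no test crosses the 2 tables. The order in the double was fixed by the rule. In the ssn2 triple both SA arrays lay above all water arrays for 26.2% of the members and 27.9% of all probe sets, so that order was no more common among the members. Effects in the ssn2 triple (log2) were 1.726 for 248270_at, 1.324 for BHLH101, 1.299 for AT5G58570, 1.157 for AT5G05250, 1.075 for UGT84A3, 0.989 for both AT1G78020 and AT5G25280, 0.836 for AT1G47400 and 0.814 for AT5G17700. Smaller effects were 0.721 for AT2G29320, 0.696 for AT2G29310, 0.542 for AT3G15720, 0.457 for Cpn60beta4, 0.437 for AER, 0.293 for AT2G37950, 0.243 for AT5G16980 and 0.093 for AT5G48730. Those of AT5G16980 and AT5G48730 were not called (adjusted p = 0.078 and 0.33).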

How the results depend on the processing

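Over the alternatives for the ssn2 fit with all its arrays, 64 to 67 members were lower and 26 to 29 higher. Leaving out each ssn2 array or each array used to choose the members gave 55 to 359 lower, 23 to 48 higher and 111 to 502 members. The upper ends came without water replicate 2 of the double, and without it the number of members moved from 126 to 502; without any other single array it was at most 145. A limit of -0.5 gave 52 members, 26 lower and 14 higher. Members chosen with pseudocount 1 numbered 170 (90 lower, 35 higher) and after median centring 159 (86 lower, 32 higher). With the replicate block, although the numbers do not pair the samples, 67 members were lower and 27 higher. The ssn2 triple has no SA replicate 3, so effects with the block equal those without its water replicate 3. These 2 alternatives are therefore not separate checks of an effect. Of 788 values of the 59 named members and 2 unnamed ones under alternatives, 747 kept their direction and their side of the threshold, 27 lost their call, 8 gained one and 6 turned. For AT5G02480 the sign turned with the replicate block (0.029) and among values of -0.06 to 0.029 without single arrays, and for AT5G59130 with quantile normalization (-0.003) and among values of -0.04 to 0.134 without single arrays; neither gene was called, and the cause was not tested. Calls were lost by AT5G05250, AT3G15720, AER, AT1G15260, AT1G72030, AT2G37950 and AT5G62210, and gained by AT1G68570, AT5G16980, AT5G41050 and GIS. With the replicate block AT1G15260 and AT2G37950 lost theirs (adjusted p = 0.075 and 0.055) and GIS gained one (0.034). List counts were within 1.5 times in 1227 of 1272 values. Effects of members whose intensity falls below 16 are compressed on the scale used. With 64 added, the effects of called members other than AT1G26790 that moved by over 1.5 times were -1.60 (AT2G15020), -0.80 (AT1G32780), -0.83 (AT5G55970), -0.19 (AT5G62210), 0.88 (BHLH101), 0.31 (AT3G15720) and 0.16 (AT2G37950). The fit that leaves 1 SA array assumes that it varies like the water arrays.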
